A study of Mus musculus with 12 samples.

Results

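The 4 mouse Hox clusters, Hoxa, Hoxb, Hoxc and Hoxd, were followed in the anterior and the posterior epiblast of E7.75 embryos labelled Dkk+/+ or Dkk-/-. The genes were chosen by symbol alone, as a cluster letter followed by a number from 1 to 13, and not by any measured value. Earlier results of these data were known at that choice. The probe table used here named 37 such genes, with 52 probes among its 46237. A gene was tested if one of its probes was detected (a detection p under 0.05 against the negative control beads of the array) on at least 3 of the 12 arrays, which 25 of the 37 Hox genes and 11124 genes in all were.

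The 12 Illumina bead arrays formed 4 groups of 3: Dkk+/+ anterior (control anterior), Dkk-/- anterior (knockout anterior), Dkk+/+ posterior (control posterior) and Dkk-/- posterior (knockout posterior). All embryos were of 1 stage, and no source used here gives the strain background, the kind of allele or the number of embryos behind an array. The protocol speaks of 4 genotypes and names only these. Nothing states whether the replicates came from separate embryos, so p-values measure the spread between these arrays. The labels write the gene as Dkk, and the array codes start with Dkk1, a secreted Wnt antagonist needed for head formation.

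The Dkk1 probe read 6.10, 5.78 and 6.06 on control anterior arrays and 5.999, 6.27 and 6.17 on knockout anterior arrays (log2 normalized intensity, the unit of every level below). On posterior arrays it read 5.05, 5.12 and 4.64 in controls and 4.75, 4.31 and 4.46 in knockouts, and no knockout posterior array detected it. The anterior genotypes overlapped, and the sources used here do not say whether the probe lies in the deleted part, so it does not check the labels. Knockout below means labelled Dkk-/-.

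Mean raw signal per array ran from 301 to 692.9, except for knockout posterior replicate 2 at 188.7, and 36.2% to 42.3% of probes were detected. All 8 epiblast markers were detected on every array. So were all 9 visceral endoderm markers, whose summed level was 41600 to 50500 in normalized intensity over the 4 groups. Six3, Lhx2, Rax and Sox1, anterior neural markers, were detected on no array. Otx2, an anterior marker, lay higher in anterior than in posterior arrays in controls (posterior minus anterior -2.75, SE 0.489, adjusted p = 0.00452). All adjusted p-values are from limma with Benjamini-Hochberg adjustment over the 11124 genes, a change is a log2 fold change with its standard error (SE), and the threshold is an adjusted p under 0.05.

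Hox genes encode homeodomain transcription factors that give positions along the body axis their identity. Within a cluster, genes at the 3' end (low paralogue numbers) are switched on earlier and reach further forward than genes at the 5' end (high numbers). In the gastrulating embryo, expression starts in the posterior primitive streak and spreads forward, under the influence of Wnt and FGF signals, Cdx factors and retinoic acid. In the hindbrain, paralogues 1 and 2 have the most anterior roles, and the genes of the middle and 5' end pattern the spinal cord, vertebrae, limbs and hindmost trunk.

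Detection alone separated the regions. Between 10 and 15 of the 37 Hox genes were detected on each anterior array, and between 19 and 23 on each posterior array. Of all probes, 39.2% to 42% were detected on anterior and 36.2% to 42.3% on posterior arrays. On all 3 arrays of a group, 7 genes were detected in control anterior, 9 in knockout anterior, 19 in control posterior and 15 in knockout posterior samples. The last group holds knockout posterior replicate 2, the array with the lowest share of probes detected (36.2%). A difference between genotypes in these counts was not tested. The 2 groups of one region overlapped in their counts per array, whereas no anterior array reached the count of any posterior array.

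The clusters differed in where they were detected. Of the 9 Hoxb genes, 6 were detected on every control anterior array (Hoxb1, Hoxb2, Hoxb4, Hoxb5, Hoxb6 and Hoxb7), and these stayed detected on all 12 arrays. For Hoxb7 this rests on 1 probe, and its second probe was detected on 8 arrays, 1 of them in each anterior group. The only other Hox gene detected on all 12 was Hoxa13, by 1 of its 3 probes. The other Hoxa13 probes were detected on 0 and 1 arrays, and the gene's level is uncertain for that reason. No Hoxc or Hoxd gene was detected on all 3 control anterior arrays, against 3 of 9 Hoxc and 5 of 9 Hoxd genes on all 3 control posterior arrays. Hoxa5, Hoxc6, Hoxc9 and Hoxd4 were detected on every posterior array of both genotypes and on no anterior array.

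**Figure D1:**
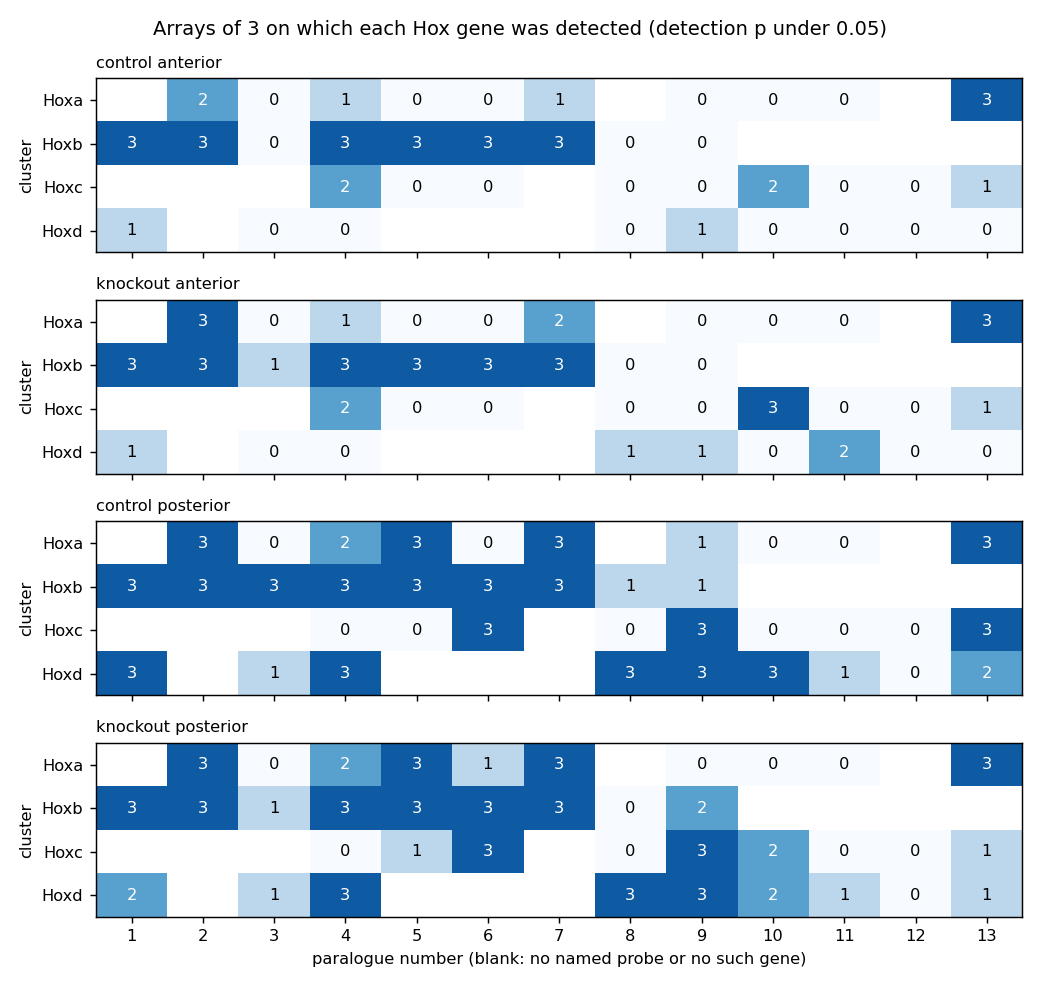
Number of arrays out of 3 on which each Hox gene was detected, by cluster (rows) and paralogue number (columns), in the 4 groups. Hoxb1, Hoxb2 and Hoxb4 to Hoxb7 read 3 in all groups, and Hoxa5, Hoxc6, Hoxc9 and Hoxd4 read 0 in both anterior and 3 in both posterior groups.

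Of the 37, 12 genes fell short of the test. Hoxa3, Hoxa10, Hoxa11, Hoxc8, Hoxc11, Hoxc12 and Hoxd12 were detected on no array. Hoxa6, Hoxa9, Hoxb8, Hoxc5 and Hoxd3 were detected on 1 or 2 arrays. Of the 25 genes that passed, 8 had a tested probe that no anterior array detected (Hoxa5, Hoxb3, Hoxb9, Hoxc6, Hoxc9, Hoxd4, Hoxd10 and Hoxd13), although another Hoxb3 probe was detected on knockout anterior replicate 1. These probes could pass only through posterior arrays, so the counts below describe the genes that passed and not all 37.

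In controls, 14 of the 25 tested Hox genes were higher in posterior than in anterior arrays and none was lower, against 2.69% of all tested genes higher. Among the 14, Hoxa5, Hoxc6, Hoxc9, Hoxd4 and Hoxd10 passed the filter only through posterior arrays. The count and the median below are therefore a description. The 14 came from all clusters: 3 Hoxa, 5 Hoxb, 2 Hoxc and 4 Hoxd genes. Hoxa2, Hoxb2, Hoxb4 and Hoxd10 did not pass when array medians over all probes replaced quantile normalization (adjusted p from 0.0558 to 0.586). The median change of the 25 was 1.27, beside 0.00892 over all genes. By paralogue number, 3 of 4 tested genes of groups 1 to 2 were higher, 2 of 5 of groups 3 to 4, 8 of 10 of groups 5 to 9, and 1 of 6 of groups 10 to 13. In such bulk samples, fewer cells of a type and less RNA per cell cannot be told apart.

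Among the 3' genes, Hoxb1, which sets the identity of rhombomere 4 in the hindbrain, had the largest fitted change of the 25, a rank that leaves aside genes whose change is only bounded. It stood at 6.69, 7.15 and 7.17 on control anterior arrays and at 10.48, 10.66 and 10.50 on control posterior arrays. The groups lay far apart and the change was 3.54 (SE 0.199, adjusted p = 1.52e-07). Hoxa2, which patterns the second pharyngeal arch and hindbrain, stood at 4.54, 5.24 and 5.11 anteriorly, where 2 of 3 arrays detected it, and at 7.11, 7.40 and 7.36 posteriorly. Its change was 2.32 (SE 0.287, adjusted p = 0.000223). Hoxb2, a target of Hoxb1 in the hindbrain, stood at 8.16, 7.96 and 8.26 anteriorly and at 9.59, 9.54 and 9.87 posteriorly, a change of 1.54 (SE 0.174, adjusted p = 0.000106). All 3 were also separated without overlap between the regions.

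Of paralogue groups 3 and 4, Hoxd4 and Hoxb4, which act at the hindbrain and cervical border, were higher posteriorly. Hoxd4 was below detection on all anterior arrays and stood at 6.58, 6.74 and 6.89 on control posterior arrays, at least 3.67-fold higher (adjusted p = 0.000208). Such a bound sets each undetected array at the lowest detected signal of that array. Hoxb4 stood at 5.30, 5.65 and 6.27 anteriorly and at 6.81, 7.24 and 6.98 posteriorly, a change of 1.27 (SE 0.254, adjusted p = 0.00968), which did not pass without control posterior replicate 2 (adjusted p = 0.0533). Hoxb3, Hoxa4 and Hoxc4 did not pass, with changes of 0.64, 0.30 and -0.28. Hoxc4 was detected on 2 arrays in each anterior group and on no posterior array, and it was never past the threshold.

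The trunk paralogues 5 to 9 gave most of the calls. Hoxa5, which acts in cervical and lung development, was undetected on every anterior array and stood at 7.70, 7.50 and 7.44 on control posterior arrays, at least 6.43-fold higher (adjusted p = 2.65e-08). Hoxd9, a 5' trunk and limb gene, stood at 4.56, 4.58 and 5.21 anteriorly, with 1 array detected by this probe, and at 8.05, 7.92 and 8.15 posteriorly, for a change of 3.26 (SE 0.189, adjusted p = 1.84e-07). A second Hoxd9 probe changed by 2.90. Hoxa5 was thus below the detection limit anteriorly, and Hoxd9 below or close to it. Both lay well above it posteriorly.

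Hoxc6 and Hoxc9, thoracic genes of the Hoxc cluster, were undetected on all anterior arrays. Hoxc6 stood at 6.47, 6.72 and 6.72 on control posterior arrays (at least 3.42-fold higher, adjusted p = 0.000204). Hoxc9 stood at 5.99, 6.05 and 6.22 there (at least 2.34-fold higher, adjusted p = 6.3e-06). Hoxd8, also a trunk gene, was undetected in control anterior samples and stood at 6.35, 6.72 and 6.34 posteriorly (at least 3.04-fold higher, adjusted p = 1.9e-05).

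The central Hoxb genes were detected in both regions. Hoxb7 stood at 5.90, 5.60 and 6.07 on control anterior arrays and at 7.83, 8.03 and 8.05 on control posterior arrays, a change of 2.11 (SE 0.213, adjusted p = 3.76e-05). Hoxb6 stood at 5.84, 5.39 and 5.86 anteriorly and at 7.48, 7.56 and 7.83 posteriorly, a change of 1.92 (SE 0.201, adjusted p = 5.05e-05). Hoxa7, the paralogue of Hoxb7 in the Hoxa cluster, stood at 4.34, 4.60 and 4.98 anteriorly, detected on 1 array, and at 6.71, 6.25 and 6.35 posteriorly, a change of 1.80 (SE 0.315, adjusted p = 0.00404). Hoxb5 did not pass in controls (0.88, SE 0.271, adjusted p = 0.0887), although its 3 posterior arrays, at 7.57, 7.57 and 7.46, all lay above its anterior ones at 6.43, 6.54 and 6.97. Hoxb9 changed by 0.04 (SE 0.163) and was detected on 1 posterior control array.

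At the 5' end only Hoxd10, a lumbosacral and hindlimb gene, was past the threshold. It was undetected anteriorly and stood at 5.34, 5.53 and 5.43 on control posterior arrays, at least 1.49-fold higher (adjusted p = 0.0287). The call was lost in 12 of 26 alternative settings, and with any 1 of the 6 control arrays left out (adjusted p from 0.0701 to 0.118). Hoxc10, Hoxd11, Hoxa13, Hoxc13 and Hoxd13 changed by -0.40 to 0.15 and did not pass. Hoxc10, whose second probe was never detected, was read on 2 control anterior arrays and on no control posterior array.

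Markers of several tissues moved with these changes, some up and some down. The summed level of the 7 tested paraxial mesoderm markers was 384 to 554 on control anterior and 2750 to 2930 on control posterior arrays. That of the 8 tested primitive streak markers was 384 to 629 and 7570 to 7850. Of the allantois and extraembryonic mesoderm markers, with Postn undetected on every array, the sums were 2690 to 3020 and 3470 to 4150. Other sums were lower posteriorly without overlap. That of the 4 tested anterior epiblast markers was 2800 to 3300 anteriorly and 616 to 777 posteriorly, that of the 6 cardiac mesoderm markers 1010 to 1420 and 339 to 480, and that of the 5 extraembryonic ectoderm markers 622 to 783 and 460 to 600. The sums of epiblast, visceral endoderm, blood and endothelium, and node and notochord markers overlapped between the control regions. A sum follows its brightest markers, and single markers moved apart from it. The epiblast marker Pou5f1 was higher posteriorly (2.69% of all genes), and Pou3f1, Utf1 and Sox2 were lower (2.29%). Of the node and notochord markers Shh was lower (-1.64, SE 0.248, adjusted p = 0.00131). No visceral endoderm or blood and endothelium marker was called. The part of these tissues in the Hox changes was not tested.

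**Figure D2:**
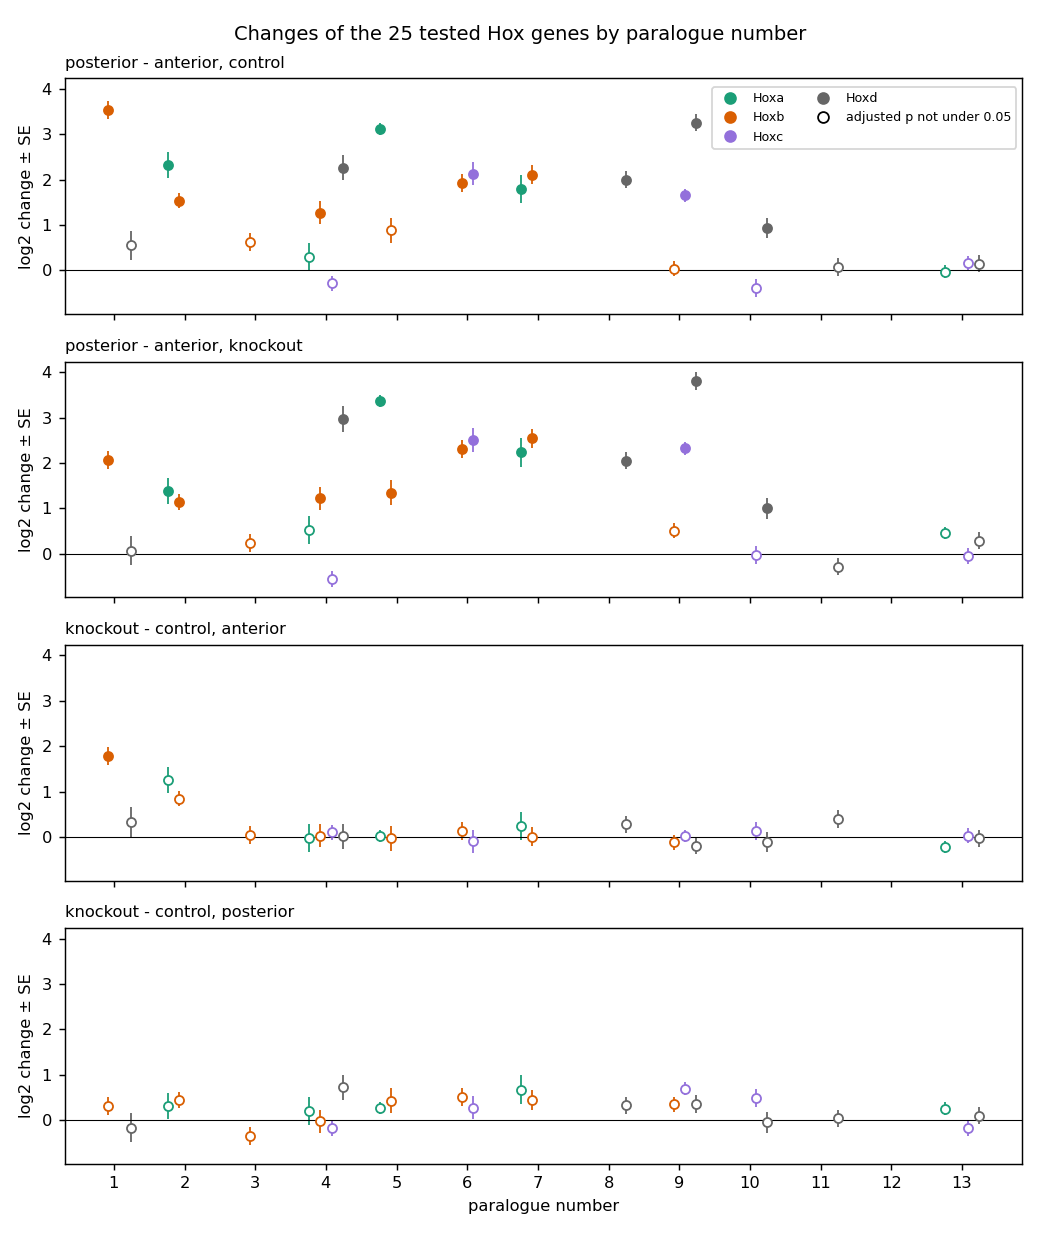
Log2 change with its SE (bars) of each of the 25 tested Hox genes against paralogue number, coloured by cluster, for the 2 region comparisons (top) and the 2 genotype comparisons (bottom). Filled points are past the threshold: 14 and 15 in the region comparisons, Hoxb1 alone in the anterior genotype comparison and none in the posterior one.

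In knockouts, the same 14 genes and Hoxb5 were higher posteriorly, 15 of 25, with none lower. They again include Hoxa5, Hoxc6, Hoxc9, Hoxd4 and Hoxd10, which passed the filter only through posterior arrays. The background in this comparison was 3.56% of all genes higher. The median change was 1.22, beside -0.0105 over all genes. With array medians over all probes used in place of quantile normalization, 3 Hox genes passed (Hoxa5, Hoxd4 and Hoxd9), and the median of all genes moved to -0.52 in that setting. The median of the Hox genes was then 0.643, with 21 of 25 changes above 0.

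The 3' genes had smaller changes between the regions in knockouts than in controls. Hoxb1 changed by 2.05 (SE 0.199, adjusted p = 2.96e-05), Hoxa2 by 1.38 (SE 0.287, adjusted p = 0.0117) and Hoxb2 by 1.13 (SE 0.174, adjusted p = 0.00151). For the trunk genes called in both genotypes the changes were larger in size than in controls under quantile normalization. All 8 were smaller under median scaling over all probes (Hoxd9 3.02 against 3.365, Hoxd8 1.48 against 2.109). In that setting the median change of all genes was also lower, at -0.52 in knockouts against -0.0861 in controls. The smaller values therefore include a shift shared by all genes. Hoxd9 was undetected by this probe on knockout anterior arrays and stood at 8.67, 8.17 and 8.35 on knockout posterior arrays, at least 11.3-fold higher (adjusted p = 1.13e-07). Hoxa5 stood at 7.74, 8.04 and 7.69 posteriorly, at least 7.58-fold higher (adjusted p = 2.17e-08), and Hoxd4 was at least 5.89-fold higher (adjusted p = 2.13e-05). Hoxc6 and Hoxc9 were at least 4.03-fold and 3.68-fold higher. These differences between the genotypes are tested by the interaction given further on.

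Of the central Hoxb genes, Hoxb4, Hoxb5, Hoxb6 and Hoxb7 all passed in the posterior knockout arrays, Hoxb5 not having done so in controls. Hoxb7 changed by 2.55 (SE 0.213), Hoxb6 by 2.30 (SE 0.201), Hoxb5 by 1.35 (SE 0.271) and Hoxb4 by 1.22 (SE 0.254), with adjusted p-values from 9.51e-06 to 0.0117. Hoxa7 changed by 2.23 (SE 0.315, adjusted p = 0.000765) and Hoxd8 by 2.05 (SE 0.187, adjusted p = 1.87e-05). Hoxd10 was detected on 2 of 3 knockout posterior arrays and on no anterior array. Its fitted change of 0.997 (SE 0.226, adjusted p = 0.0183) is therefore uncertain. It did not pass without knockout anterior replicate 1 (adjusted p = 0.0514) or replicate 2 (adjusted p = 0.0549).

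**Figure D3:**
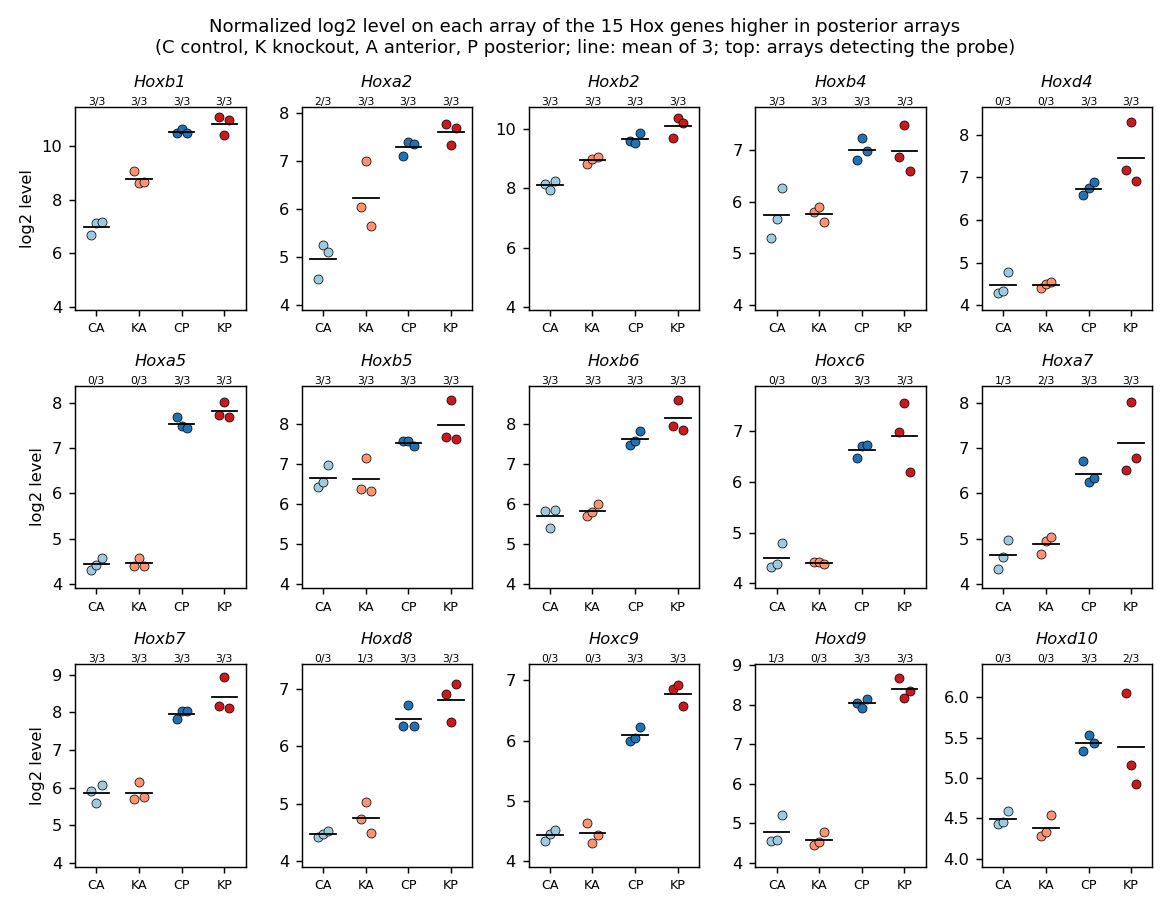
Log2 normalized level on each of the 12 arrays of the 15 Hox genes past the threshold between regions, ordered by paralogue number, with the mean of each group as a line and the arrays that detected the probe given above each group. Knockout anterior arrays lie between the control anterior and control posterior arrays for Hoxb1, Hoxa2 and Hoxb2, and among or near the control anterior arrays for most of the others, such as Hoxa5, Hoxb7 and Hoxd9.

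In the anterior epiblast, Hoxb1 was higher in knockouts than in controls, and it was the 1 Hox gene of 25 past the threshold, against 0.324% of all genes called higher. It stood at 9.08, 8.63 and 8.68 on knockout anterior arrays, all above the highest control value of 7.17. The change was 1.79 (SE 0.199, adjusted p = 0.00178), and a second Hoxb1 probe changed by 1.69. The call was lost in 1 of 26 alternative settings, median scaling over all probes, where no Hox gene passed and the change was 1.503 (adjusted p = 0.984).

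Hoxa2 and Hoxb2 had the next largest anterior changes and were not past the threshold. Hoxa2 stood at 6.04, 6.99 and 5.65 on knockout anterior arrays, above the highest control value of 5.24, with a change of 1.26 (SE 0.287, adjusted p = 0.0947). Hoxb2 stood at 8.84, 8.998 and 9.08, above the highest control value of 8.26, with a change of 0.84 (SE 0.174, adjusted p = 0.059). With knockout posterior replicate 1 or 2 left out, Hoxb2 passed (adjusted p = 0.0225 and 0.037), and with knockout anterior replicate 3 left out, Hoxa2 passed (adjusted p = 0.0428). Hoxa2, Hoxb1 and Hoxb2 were the 3 of 25 genes whose knockout anterior arrays all lay above the control ones, a state found in 7.24% of all genes.

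The 22 other tested Hox genes changed by -0.22 to 0.40 in the anterior epiblast. The extremes were Hoxa13 (-0.22, SE 0.137) and Hoxd11 (0.40, SE 0.19), which 2 knockout and no control anterior arrays detected. Hoxd1, the other tested paralogue 1 gene, changed by 0.33 (SE 0.322, adjusted p = 0.827) and was detected on 1 array of each anterior group. The 10 tested genes of paralogues 5 to 9 lay between -0.19 and 0.28, and none was past the threshold. The median change of the 25 was 0.0256, beside 0.00428 over all genes. Median scaling over all probes gave -0.00947, with the median of all genes at -0.216.

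Set on the scale from the control anterior to the control posterior mean, the knockout anterior mean lay at 50.6% for Hoxb1, 54.2% for Hoxa2 and 54.9% for Hoxb2. For the 11 other genes called between the control regions it lay between -11.4% (Hoxd10) and 13.9% (Hoxd8). For Hoxa5, Hoxc6, Hoxc9, Hoxd4 and Hoxd10 both anterior groups were below detection, so their place on this scale has no meaning beyond that. Hoxd8 and Hoxd9, by the tested probe, were each detected on 1 anterior array and Hoxa7 on 3, so their places are also uncertain. Hoxb4, Hoxb6 and Hoxb7, detected by the tested probe on all 6 anterior arrays, lay at 2.02%, 6.98% and 0.234%. These percentages share the control anterior arrays on both sides and are a description.

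The promoter of Hoxb1 is shown because Hoxb1 was the Hox gene called between genotypes. Those of Hoxa2 and Hoxd4, chosen after their values were seen, are shown as a gene of the 3' end that changed in the same direction anteriorly and as one that was undetected in both anterior groups. Each window holds 300 bases, from 250 before to 50 after the start of the gene in RefSeq (GRCm38.p6), written 5' to 3' on the strand of the gene. They lie at chr11:96365508-96365807 (plus strand, Hoxb1), chr6:52164782-52165081 (minus strand, Hoxa2) and chr2:74721728-74722027 (plus strand, Hoxd4). Capitals mark matches on either strand to the letters TGATNNAT (Pbx and Hox proteins), TTTAT with its longer form TTTATNG (Cdx), CTTTGAT (TCF/LEF) and AGGTCA (the core letters bound by retinoic acid receptors). Every TTTATNG match is also a TTTAT match.
Hoxb1: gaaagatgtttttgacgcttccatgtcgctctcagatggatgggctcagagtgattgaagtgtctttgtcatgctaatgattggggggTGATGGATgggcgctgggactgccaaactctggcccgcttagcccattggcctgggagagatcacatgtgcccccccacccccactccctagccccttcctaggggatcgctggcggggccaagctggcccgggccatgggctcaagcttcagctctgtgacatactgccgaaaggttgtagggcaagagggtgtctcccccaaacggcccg
Hoxa2: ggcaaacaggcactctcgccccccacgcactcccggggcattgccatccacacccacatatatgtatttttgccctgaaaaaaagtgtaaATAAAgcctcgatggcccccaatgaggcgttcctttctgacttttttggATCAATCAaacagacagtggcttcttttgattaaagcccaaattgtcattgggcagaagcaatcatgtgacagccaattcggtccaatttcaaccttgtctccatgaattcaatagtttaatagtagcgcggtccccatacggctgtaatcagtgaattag
Hoxd4: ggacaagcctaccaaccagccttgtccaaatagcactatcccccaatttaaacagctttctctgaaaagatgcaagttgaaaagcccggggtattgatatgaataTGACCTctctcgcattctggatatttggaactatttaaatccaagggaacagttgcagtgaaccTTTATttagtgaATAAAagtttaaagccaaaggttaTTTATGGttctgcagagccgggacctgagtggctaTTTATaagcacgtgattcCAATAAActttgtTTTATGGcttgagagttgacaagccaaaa

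Hoxb1 and Hoxa2 each held 1 match to TGATNNAT, the type of site through which Hox and Pbx proteins bind together. In Hoxb1 it read TGATGGAT on the strand of the gene, starting 162 bases before the gene start. In Hoxa2 it read ATCAATCA, the reverse strand's match, starting 111 bases before. Among the 22 Hox genes with a promoter in the table, 4 held this motif (also Hoxb8 and Hoxd11), beside 8.85% of all 32851 promoters. Hoxd4 held 6 matches to TTTAT, 3 of them of the longer form, and 1 to AGGTCA. Of the Hox genes, 2 held TTTATNG, 8 held TTTAT, 1 held CTTTGAT (Hoxd8) and 7 held AGGTCA, beside 10.9%, 40.0%, 3.73% and 16.3% of all promoters. A match is a run of letters and not a shown binding site.

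In the posterior epiblast no Hox gene was past the threshold between genotypes, and none of the 11124 genes was (0% called higher by limma). At an unadjusted p under 0.05 there were 5 Hox genes and 1104 genes in all. The largest changes were those of Hoxd4, Hoxc9 and Hoxa7. Hoxd4 stood at 7.17, 8.29 and 6.91 on knockout posterior arrays, each above the highest control value of 6.89, with a change of 0.72 (SE 0.277, adjusted p = 0.439). Hoxc9 stood at 6.86, 6.92 and 6.57 against a highest control value of 6.22, a change of 0.69 (SE 0.139, adjusted p = 0.141). Hoxa7 stood at 6.52, 8.03 and 6.77 and overlapped the controls, with a change of 0.67 (SE 0.315, adjusted p = 0.514).

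The direction of the posterior genotype values changed with the scaling. Under quantile normalization 19 of 25 Hox genes had a change above 0, with a median of 0.305 beside -0.0217 over all genes. Under median scaling over all probes the median of all genes was -0.68 and that of the Hox genes -0.278, with 3 of 25 above 0. Hoxa7, Hoxc9 and Hoxd4 then had changes of -0.145, -0.007 and -0.097. Under median scaling over probes that every array detected, the median of all genes was 0.163 and that of the Hox genes 0.564, with 25 of 25 above 0. The median scalings differ from each other by a common amount for all genes of a comparison, and relative to all genes the Hox median lay 0.402 higher in each.

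All 3 knockout posterior arrays lay above all 3 control ones for 7 of 25 Hox genes (Hoxb5, Hoxb6, Hoxb7, Hoxc9, Hoxc10, Hoxd4 and Hoxd9), beside 6.75% of all genes. Hoxb7 stood at 8.17, 8.93 and 8.13, Hoxb6 at 7.95, 8.60 and 7.86 and Hoxb5 at 7.66, 8.60 and 7.63 on the knockout arrays. In each of them replicate 2 was the highest. That replicate, the array of weakest signal, was the highest of its group for 13 of the 25 Hox genes and for 32% of all genes. Without it the Hox median was 0.198, beside 0.00406 over all genes, 18 of the 24 genes then tested lay above 0, and 11 had both remaining arrays above the controls, beside 13.3% of all genes. The change of Hoxc9 was then 0.64, that of Hoxd4 0.31 and that of Hoxa7 0.21. Among the genes without overlap, the change of Hoxb5 went from 0.43 to 0.11, that of Hoxb7 from 0.44 to 0.18 and that of Hoxb6 from 0.51 to 0.28.

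Marker sums also moved with genotype. The paraxial mesoderm sum was 1200 to 1600 on knockout anterior arrays, above the 384 to 554 of control anterior arrays, and 2970 to 3590 against 2750 to 2930 on posterior ones. The primitive streak sum was 649 to 966 on knockout anterior arrays, above the 384 to 629 of controls, and 6010 to 8050 against 7570 to 7850 posteriorly. The allantois and extraembryonic mesoderm sum was 4270 to 5320 on knockout posterior arrays against 3470 to 4150. The cardiac mesoderm sum was higher in knockouts in both regions, at 1520 to 1640 anteriorly and 571 to 633 posteriorly. Of its 6 tested markers, Myl2 alone was called higher anteriorly (0.324% of all genes), and none was called posteriorly. Other sums were lower in knockouts. That of the anterior epiblast markers was 1310 to 1700 on knockout anterior and 92.8 to 355 on knockout posterior arrays. The epiblast sum was 22200 to 22900 against 26600 to 29800 anteriorly and 17600 to 22700 against 27100 to 28400 posteriorly. The extraembryonic ectoderm sum was 240 to 404 anteriorly, below its controls, and the visceral endoderm sum was 41600 to 44000 against 44200 to 46100 posteriorly. Their part in the Hox values was not tested.

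Averaged over both regions, Hoxb1 (1.05, SE 0.141, adjusted p = 0.0067) and Hoxb2 (0.64, SE 0.123, adjusted p = 0.0434) were higher in knockouts, beside 0.252% of all genes called higher. The Hoxb2 call was lost in 14 of 25 alternative settings, among them any 1 array left out except control anterior replicate 3 and knockout posterior replicate 1 (adjusted p from 0.0557 to 0.12). Hoxa2 had an average change of 0.79 (SE 0.203, adjusted p = 0.115) and did not pass.

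The interaction, the posterior genotype change minus the anterior one, tests whether the genotypes differed unequally in the regions. No Hox gene passed in limma, and 0% of all genes were called higher and 1 gene lower. At an unadjusted p under 0.05 there were 4 Hox genes and 685 genes in all. Hoxb1 had the largest value (-1.49, SE 0.281, adjusted p = 0.173), then Hoxa2 (-0.95, SE 0.406, adjusted p = 0.763) and Hoxd4 (0.70, SE 0.391, adjusted p = 0.864). Adjusted p-values for Hoxb1 ran from 0.0191 (trended and robust variances, the only setting in which it passed) to 0.842. The smaller region change of Hoxb1 in knockouts was therefore not past the threshold as a difference in the setting used here.

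The genes known to act on Hox clusters were described from lists of regulators, cofactors and neighbours. These lists were chosen with earlier results of these data known, so their counts beside the shares of all genes are a description. Of the 17 tested caudal and growth zone regulators, 15 were higher posteriorly in controls and none lower, against 2.69% of all genes higher (median 2.52, beside 0.00892 over all genes). Fgf4, among the 15, was detected on control posterior arrays only and passed the filter through them. The largest changes were those of the Wnt ligand Wnt3a (6.30, SE 0.241), the mesoderm factor Tbx6 (4.02, SE 0.173), Cdx1 (3.92, SE 0.408), Evx1 beside the Hoxa cluster (3.76, SE 0.316), Nkx1-2 (3.28, SE 0.208) and Cdx2 (3.27, SE 0.156), with adjusted p-values from 1e-08 to 5.05e-05. In knockouts 14 of 17 were higher posteriorly, against 3.56% of all genes, and Sall4 was lower (-0.50, SE 0.124, adjusted p = 0.0268), against 4.31% of all genes. Median scaling over all probes left 12 of 17 higher in controls and 3 in knockouts. Tbx6, Evx1, Wnt3a, Fgf8 and Fgf4 also stand among the mesoderm or streak markers.

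In anterior arrays 5 of these 17 were higher in knockouts than in controls and none lower, against 0.324% of all genes higher (median 0.717, beside 0.00428 over all genes). Tbx6 stood at 6.54, 6.61 and 6.64 in controls and at 8.26, 7.54 and 8.08 in knockouts (1.36, SE 0.173, adjusted p = 0.00451). Wnt8a, a Wnt ligand of the posterior embryo, stood at 6.32, 7.33 and 6.81 in controls and at 8.15, 8.49 and 7.77 in knockouts (1.32, SE 0.237, adjusted p = 0.0284). Sp5, a direct Wnt target, stood at 9.53, 9.48 and 9.69 and at 10.77, 10.73 and 10.75 (1.19, SE 0.11, adjusted p = 0.000467). For these genes all knockout arrays lay above all control arrays. Gbx2, which sets the midbrain and hindbrain border, changed by 1.02 (SE 0.177, adjusted p = 0.0231) and Wnt5a by 0.98 (SE 0.145, adjusted p = 0.012). None of the 5 passed under median scaling over all probes, where the median of the 17 was 0.472. Over 26 alternative settings Sp5 and Tbx6 lost the call in 1, Wnt5a in 2, Gbx2 in 6 and Wnt8a in 11.

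The Cdx genes, which feed Wnt input into trunk Hox genes, were not past the threshold between genotypes in either region. Cdx2 stood at 9.13, 9.39 and 9.45 on control anterior and at 9.999, 9.75 and 10.36 on knockout anterior arrays. Cdx4 was detected on 1 control anterior and on no knockout anterior array, and stood between 7.17 and 7.51 on all posterior arrays. None of the 17 regulators was past the threshold between genotypes posteriorly.

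**Figure D4:**
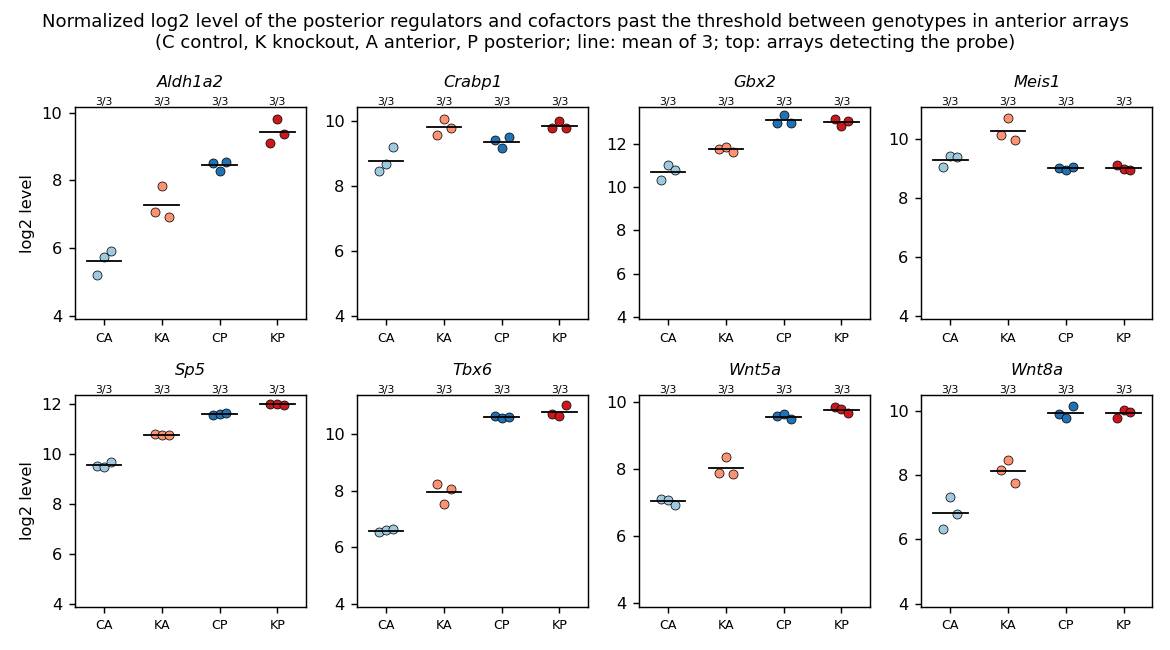
Log2 normalized level on each array of the 8 Hox regulators and cofactors past the threshold between genotypes in anterior arrays, with group means as lines. The knockout anterior arrays lie above the control anterior arrays in each panel, and Meis1 is the 1 gene of the 8 whose posterior arrays of both genotypes all lie below the knockout anterior ones.

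Of 13 tested genes of the retinoic acid pathway, 2 were higher in knockout anterior arrays, against 0.324% of all genes (median 0.055, beside 0.00428 over all genes). Aldh1a2, which makes retinoic acid in the mesoderm, stood at 5.21, 5.73 and 5.90 in controls and at 7.06, 7.84 and 6.92 in knockouts (1.66, SE 0.256, adjusted p = 0.0148). Crabp1, a retinoic acid binding protein, changed by 1.03 (SE 0.193, adjusted p = 0.0336). The Aldh1a2 call was lost in 4 of 26 alternative settings and the Crabp1 call in 14. Between regions in controls, Aldh1a2 (2.83, SE 0.256) and Rxrg (1.80, SE 0.198) were higher posteriorly, against 2.69% of all genes. Cyp26a1, which breaks retinoic acid down, was lower posteriorly (-1.36, SE 0.192, adjusted p = 0.000724), against 2.29% of all genes. In knockouts Aldh1a2 (2.16, SE 0.256) and Rxrg (1.39, SE 0.198) were again higher posteriorly, against 3.56% of all genes. Cyp26a1 (-1.36, SE 0.192), Rarb (-0.80, SE 0.189) and Rdh10 were lower, against 4.31% of all genes. Rdh10 was detected on 2 of 3 knockout anterior arrays and on no posterior array. Its fitted change (-0.76, SE 0.204, adjusted p = 0.0399) is therefore uncertain.

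The TALE homeodomain genes tested were Meis, Pbx and Pknox genes, whose proteins bind DNA with Hox proteins, and Irx3. Among these 9, Meis1 was the 1 gene called in the anterior genotype comparison, against 0.324% of all genes called higher. It stood at 9.07, 9.44 and 9.41 on control and at 10.15, 10.74 and 9.98 on knockout anterior arrays (0.99, SE 0.18, adjusted p = 0.0318), a call lost in 13 of 26 alternative settings. In controls Meis2 (1.00, SE 0.231) and Pknox2 (1.18, SE 0.257) were higher posteriorly and Irx3 lower (-1.57, SE 0.183), against 2.69% of all genes higher and 2.29% lower. In knockouts none was higher, and Meis1 (-1.26, SE 0.18) and Irx3 (-2.30, SE 0.183) were lower, against 3.56% of all genes higher and 4.31% lower. Irx3 was also lower in knockouts on average over both regions (-0.81, SE 0.13, adjusted p = 0.0157), against 0.261% of all genes.

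Of 7 tested hindbrain segment regulators, Gbx2 was the 1 higher in knockout anterior arrays (0.324% of all genes), and Otx2 and Irx3 were lower in knockouts on average over both regions (Otx2 -1.77, SE 0.346, adjusted p = 0.0445), against 0.261% of all genes. Of 8 tested ParaHox and other Antennapedia-class genes, 6 were higher posteriorly in controls (Gbx2, Cdx1, Cdx2, Cdx4, Evx1 and Meox1), against 2.69% of all genes. Polycomb and Trithorax genes keep Hox clusters silent or active. Of the 24 tested, Phc2 was higher posteriorly in controls (0.58, SE 0.139, adjusted p = 0.0276), where 2.69% of all genes were, and none was past the threshold in any other comparison. The median of the 24 in controls was 0.0133, beside 0.00892 over all genes. Of the 13 tested genes within or beside the clusters, Evx1 was the 1 called, in both region comparisons (2.69% and 3.56% of all genes higher), and none was called between genotypes. The median region change of these 13 in controls was 0.0567, beside 1.27 for the 25 Hox genes.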

How the data were processed

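The deposited table held probe intensity on a linear scale, with a detection p-value per probe and array, per the file headers. The submitters' processing notes name GenomeStudio. The authors' deposited log2 values (series matrix) were used as an alternative, and whether their background was subtracted is unknown. The function neqc of limma 3.58.1, under R 4.3.3, subtracted background by normexp, applied quantile normalization and took log2 after adding an offset of 16. Of 46237 probes, 21051 were detected (p under 0.05) on at least 3 arrays, and 15924 of these had a gene name from the probe table, updated through RefSeq. The probe with the highest mean stood for a gene, which gave 11124 genes. A model with 4 group means was fitted and 6 contrasts were tested. Marker sums add the linear normalized intensity, less the offset, over the tested markers of a list. The scripts were tested on simulated data.

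The Hox genes and all lists were chosen with earlier results of these data known. Named with all values were Hox genes past the threshold or among the 3 largest changes of a contrast, and of the other lists at most the 6 largest calls. Levels of different probes were not compared. The number of arrays limits the precision. Alternatives covered background, scaling, filter, probe choice, variances, weights, each array left out and the replicate number as a block. A term for the bead chip was not run, since the headers name none. Protein sequences were not used here.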

Additional observations from a re-analysis of the deposited data

How the results depend on the processing

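Of 1090 alternative values for the 41 changes of named Hox genes, 1024 kept their direction and side of the threshold, 49 lost the threshold, 13 gained it and 4 changed sign. The 4 all came from median scaling over all probes: Hoxa7 (-0.145), Hoxc9 (-0.007) and Hoxd4 (-0.097) between genotypes posteriorly, and Hoxd4 in the interaction (-0.223). That scaling also left 3 of the 15 region calls in knockouts, 0 Hox calls between genotypes anteriorly and 0 on average. It ended the control region calls of Hoxa2 (adjusted p = 0.0558), Hoxb2 (0.11), Hoxb4 (0.355) and Hoxd10 (0.586). The other settings in which a count moved by over 1.5 times gave 2 anterior Hox calls (no background correction, an offset of 50, the series matrix values, the mean of the probes) or 3 (trended and robust variances, array weights). On average over both regions they gave 1 (median scaling over probes detected on all arrays, no filter, every probe tested) or 4 (array weights), and in the interaction 1 (trended and robust variances, Hoxb1). The causes were not tested.

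With each array left out in turn, the Hox calls ran from 12 to 15 between control regions, from 14 to 16 between knockout regions, from 1 to 2 between genotypes anteriorly and from 1 to 2 on average, and stayed at 0 in the posterior comparison and the interaction. Leaving out any one array except control anterior replicate 3 and knockout posterior replicate 1 ended the average Hoxb2 call, which left 1. Hoxb1 passed anteriorly in every one of these.

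Correlations of deviations from the group means ran from -0.109 to 0.109 for the same replicate number across genotypes, within a region. Different numbers gave -0.177 to 0.174. Between the anterior and posterior array of one code they ran from -0.111 to 0.221, against -0.261 to 0.146 for different numbers. The pairs of one code gave 0.055, 0.213 and 0.221 in controls and -0.03, -0.111 and 0.053 in knockouts. With 3 arrays per group, these values cannot decide whether a code marks shared embryos. With the replicate number as a block, the Hox calls were 14 and 15 between regions, 1 between genotypes anteriorly, 0 posteriorly, 2 on average and 0 in the interaction. At a detection p under 0.01, 7, 8, 16 and 15 Hox genes were detected on all 3 control anterior, knockout anterior, control posterior and knockout posterior arrays. Signals near background, as for most Hox genes anteriorly, give only bounds. A bead chip term was not run, since the headers name none. The Hox median and the count of genes without overlap were recomputed without knockout posterior replicate 2 after seeing the data.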
